A study of Mus musculus with 4 samples.

Results

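Immunoglobulin genes encode the antibodies and antigen receptors of B cells. Summed over 4 libraries prepared from mouse CD4+ T cells, 181 of them reached 10 counts. Members were chosen by name and by measured counts. They are the V and J segments of the heavy, kappa and lambda loci, the constant genes and the J chain gene with at least 10 counts summed over 4 libraries. D segments also belong to the name rule, and none of them reached the count minimum. The rule drew 181 members from 397 rows of that name in a table of 34745 genes. The other rows had 0 counts in 152 cases and 1 to 9 counts in 64.

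The mice were C57BL/6 and wild type, of an age not given in the labels, and each group of their spleen CD4+ T cells was sequenced as 1 library. The naive library held CD4+ T cells selected from spleen with no culture. Th0 cells had received αCD3/CD28 stimulation for 3 days, and Th17 and Treg cells were taken after 3 days in Th17 or Treg differentiation conditions. The labels give neither the cytokines of those conditions, nor the purity of the selected cells, nor whether animals were pooled. A group with 1 library has no replicate check, so no test between conditions was possible and every interval below is a 95% counting interval of 1 library or of a pair. In bulk RNA, fewer cells of a type and less RNA per cell cannot be told apart.

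An antibody is made of paired heavy and light chains, and each chain joins a variable domain to a constant region. In developing B cells the RAG recombinase joins V, D and J segments of the heavy-chain locus and V and J segments of the kappa or lambda locus, so that each cell uses few of the many V segments. The joined V segment is transcribed with the constant gene downstream. Naive B cells carry IgM and IgD, the products of Ighm and Ighd, and class switching later exchanges them for IgG, IgE or IgA. Heavy-chain constant regions can also be transcribed without a joined V segment, as germline transcripts. T cells rearrange their own T cell receptor loci and are not known as a source of antibody.

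J segments are shown first, as the shortest members. The coding strand of the 6 J members is given 5′ to 3′ from GENCODE vM21 transcripts (GRCm38), and of Ighj2 only its record with a coding stretch. Capitals mark the codons for tryptophan or phenylalanine, glycine, any residue and glycine, searched in the 3 frames of the printed strand. Igkj3 holds no such run of codons in its 38 printed bases. They lie at chr12:113429468-113429515 and chr12:113428514-113428567 on the minus strand for Ighj2 and Ighj4, and at chr16:19200198-19200235 on the minus strand for Iglj2. The kappa J members lie on the plus strand at chr6:70722916-70722954, chr6:70723223-70723260 and chr6:70723886-70723923.
Ighj2: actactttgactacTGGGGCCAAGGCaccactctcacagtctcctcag
Ighj4: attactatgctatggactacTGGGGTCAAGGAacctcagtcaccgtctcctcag
Igkj2: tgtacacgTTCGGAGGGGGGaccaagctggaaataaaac
Igkj3: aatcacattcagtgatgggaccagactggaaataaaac
Igkj5: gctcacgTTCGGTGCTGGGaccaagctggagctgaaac
Iglj2: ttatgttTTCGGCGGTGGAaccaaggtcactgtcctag

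V segments are shown by the 3′ ends of the highest heavy and kappa members per length in the naive library. Each stretch holds the last 90 coding bases of the V exon, which run up to the junction with D or J. Capitals mark the 3 codons that end in the conserved cysteine at the border of the third hypervariable loop. They lie at chr12:114788372-114788461 for Ighv1-26 and chr12:114288157-114288246 for Ighv3-6, both on the minus strand. For Igkv10-96 the stretch is chr6:68631963-68632052 on the minus strand, and for Igkv1-117 it is chr6:68121738-68121827 on the plus strand.
Ighv1-26: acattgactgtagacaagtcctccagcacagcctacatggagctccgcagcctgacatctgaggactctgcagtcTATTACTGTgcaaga
Ighv3-6: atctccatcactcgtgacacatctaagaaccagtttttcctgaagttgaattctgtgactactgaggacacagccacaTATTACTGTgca
Igkv10-96: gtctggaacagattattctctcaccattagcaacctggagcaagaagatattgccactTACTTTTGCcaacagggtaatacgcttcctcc
Igkv1-117: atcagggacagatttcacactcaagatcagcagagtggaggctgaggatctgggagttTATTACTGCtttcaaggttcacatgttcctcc

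Lambda members are shown as pairs, because their copies are so alike that the assignment of reads between them is uncertain. Over 240 coding bases, Iglv1 (chr16:19085017-19085256, minus strand) and Iglv2 (chr16:19260401-19260640, minus strand) were 97.5% identical. Iglc3 (chr16:19065368-19065607, minus strand) and Iglc2 (chr16:19198539-19198778, minus strand) were 97.1% identical over 240 coding bases. Capitals mark the bases that differ within a pair.
Iglv1: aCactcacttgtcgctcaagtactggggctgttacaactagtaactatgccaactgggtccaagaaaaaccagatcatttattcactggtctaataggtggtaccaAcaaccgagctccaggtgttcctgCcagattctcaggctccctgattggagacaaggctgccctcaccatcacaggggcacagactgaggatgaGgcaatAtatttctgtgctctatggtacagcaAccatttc
Iglv2: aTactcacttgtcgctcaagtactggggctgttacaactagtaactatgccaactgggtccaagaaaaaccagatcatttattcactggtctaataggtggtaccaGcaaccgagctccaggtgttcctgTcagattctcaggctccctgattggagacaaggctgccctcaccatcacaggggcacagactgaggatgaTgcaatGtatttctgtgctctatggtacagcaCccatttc
Iglc3: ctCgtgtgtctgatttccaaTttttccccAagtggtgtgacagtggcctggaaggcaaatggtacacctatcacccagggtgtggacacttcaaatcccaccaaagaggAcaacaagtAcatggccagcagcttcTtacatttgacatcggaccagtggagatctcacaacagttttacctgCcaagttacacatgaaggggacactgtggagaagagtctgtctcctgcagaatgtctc
Iglc2: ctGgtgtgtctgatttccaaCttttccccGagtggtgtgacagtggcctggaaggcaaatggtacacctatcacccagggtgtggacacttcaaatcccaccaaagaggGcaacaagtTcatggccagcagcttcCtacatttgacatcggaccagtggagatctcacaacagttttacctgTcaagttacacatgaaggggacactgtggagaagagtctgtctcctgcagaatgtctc

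Every member had its highest level in the naive library. Levels are in CPM, the counts scaled by the effective size of the library, and where 4 values stand together they follow the order naive, Th0, Th17, Treg. Together the members took 0.516%, 0.0389%, 0.0190% and 0.0105% of all counts. Their summed level was 5014, 457, 179.8 and 97.4 CPM in the 4 libraries. The naive sum was thus 11.0-fold that of Th0 (interval 10.6 to 11.3), 27.9-fold that of Th17 (26.8 to 29.1) and 51.5-fold that of Treg (48.5 to 54.7). Members at 0 counts numbered 0, 54, 87 and 136, and those with at least 10 counts 172, 14, 8 and 4. The members therefore passed the count minimum almost entirely through the naive library, and their direction against it is a description of that choice.

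Higher and lower calls were made where the CPM of a gene plus 1 differed at least 2-fold between a pair of libraries and the counting interval of the ratio excluded equality. A gene entered a comparison if either library of the pair held 10 or more of its counts. For Th0 over naive, 165 of 172 tested members were called lower and 0 higher, while 27.2% of all tested genes were lower and 18.5% higher. For Th17 over naive, 167 members were lower and 0 higher, beside 17.7% and 15.5% of all tested genes. For Treg over naive, 170 members were lower and 0 higher, beside 16.9% and 14.9%. The median log2 ratio of the tested members was -2.50 for Th0, -2.72 for Th17 and -2.83 for Treg, and that of all tested genes was -0.13, -0.01 and -0.02. The 3 comparisons share the naive library. The added 1 CPM shrinks the ratios of the low V segments, so folds below are ratios of CPM without it.

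Members that met neither call had low counts. In Th0 they were Ighv5-15 with 10, 2, 1 and 0 counts, Igkv12-89 with 14, 3, 0 and 0, Igkv10-95 with 22, 6, 1 and 0, Igkv6-14 with 15, 1, 0 and 1, Ighv1-66 with 28, 6, 3 and 0, Igkv11-125 and Iglj2. In Th17 they were Ighv14-1 with 15, 0, 2 and 0 counts, Ighv2-4 with 13, 0, 1 and 0, Ighv1-58 with 15, 0, 2 and 0, Ighv5-15 and Igkv11-125. Only Ighv5-15 and Igkv11-125 met neither call in Treg, both at a log2 ratio of -0.86. Both had 10 counts in naive, so with 1 CPM added neither could be called lower in any culture.

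**Figure D1:**
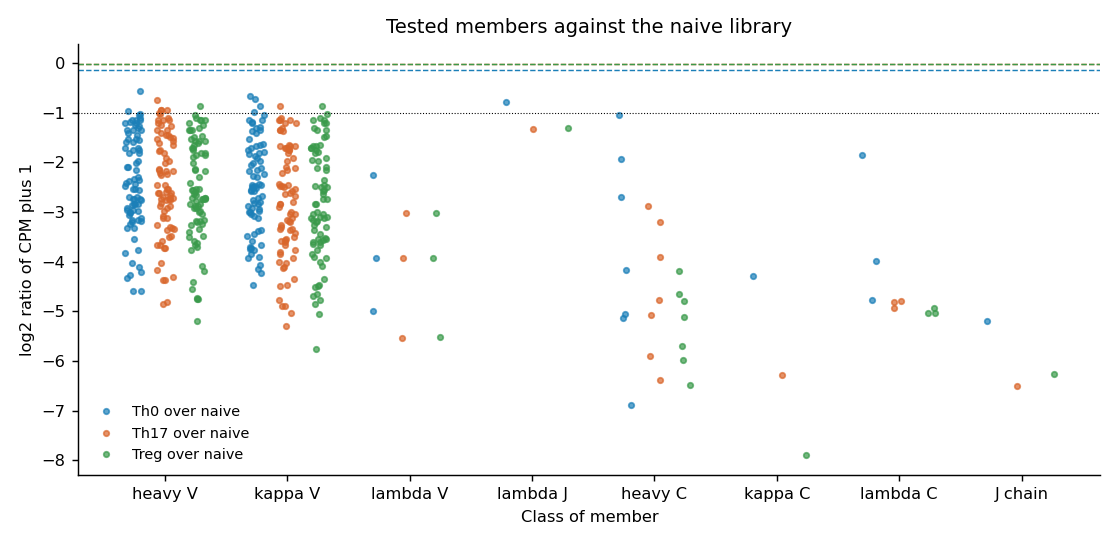
Log2 ratio of CPM plus 1 (vertical axis) for each tested member by class (horizontal axis), with 1 point per member, for Th0, Th17 and Treg over naive. Dashed lines are the medians of all tested genes (-0.13, -0.01 and -0.02), the dotted line is the 2-fold limit, and all points lie below 0.

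Markers of B cells were lower in the same libraries as the members. Of 12 B cell markers, 12 had reads in every library and 12 were called lower in each culture than in naive. They summed to 1128, 127, 102 and 30.03 CPM in the 4 libraries, so member level per marker level was 4.45, 3.60, 1.75 and 3.24. Among them Ms4a1, which encodes the surface protein CD20, had 1608, 45, 14 and 6 counts. Of the 10 T cell markers, all had reads in every library, and their sum was 3720, 4805, 3767 and 4233 CPM. Macrophage and monocyte markers summed to 3418 CPM in naive and 27.0 to 40.7 CPM in the cultures, and neutrophil markers to 1625 CPM and 1.14 to 4.60 CPM. Plasma cell markers summed to 93.9, 46.1, 49.7 and 26.3 CPM in the 4 libraries, with Tnfrsf17 at 7 counts in naive and 0 in all cultures. Of these 5 markers Sdc1 was called higher in Th17 and Treg than in naive, with 45, 37, 159 and 113 counts. The part of these cells in the immunoglobulin levels was not tested.

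Constant genes gave most of the member reads. Ighm, which encodes the constant region of IgM, lies on chromosome 12 from 113418558 to 113422730 on the minus strand. It had 26106, 2843, 1853 and 927 counts in the 4 libraries, or 2132, 325, 141 and 83.6 CPM. Naive was 6.55-fold above Th0 (interval 6.30 to 6.81), 15.1-fold above Th17 (14.4 to 15.8) and 25.5-fold above Treg (23.9 to 27.3). Its share of all member counts was 42.5%, 71.1%, 78.5% and 85.8% in the 4 libraries. The order of the 4 levels was thus the reverse of the order of that share.

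Igkc, the only kappa constant gene, lies on chromosome 6 from 70726435 to 70726966 on the plus strand. It had 9756, 346, 122 and 26 counts in the 4 libraries, or 797, 39.6, 9.30 and 2.34 CPM. Naive was 20.1-fold above Th0 (18.1 to 22.5), 85.7-fold above Th17 (71.7 to 103) and 339.8-fold above Treg (232 to 520.5). Igkc therefore differed from naive by more than Ighm did in each culture, with intervals that do not overlap. The ratio of Ighm to Igkc CPM was 2.68, 8.22, 15.2 and 35.7 in the 4 libraries.

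Ighd and Igha were close to each other per length in naive, at 68.8 and 69.8 CPM per kb of exon. Ighd, which encodes the constant region of IgD, had 1601, 26, 38 and 17 counts. Its naive level was 43.9-fold that of Th0 (29.9 to 67.5), 45.2-fold that of Th17 (32.8 to 64.0) and 85.3-fold that of Treg (53.1 to 147). Igha, which encodes the constant region of IgA, had 2281, 5, 28 and 22 counts. Its naive level was 325-fold that of Th0 (139 to 1003), 87.3-fold that of Th17 (60.2 to 132) and 93.9-fold that of Treg (61.9 to 150.1). Igha was the member with the lowest Th0 over naive log2 ratio, at -6.90, and in Th0 it had fewer counts than in Th17 or Treg.

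The IgG constant genes ran in different orders. Ighg1 had 351, 117, 40 and 7 counts, and naive was only 2.14-fold above Th0 (1.73 to 2.66), 9.40-fold above Th17 and 45.4-fold above Treg. Ighg3 had 325, 54, 26 and 0 counts, so that naive was 4.29-fold above Th0 (3.21 to 5.84) and at least 98.1-fold above Treg, with 0 counts taken as 3. Ighg2c had 1087, 35, 1 and 0 counts, and naive was 22.2-fold above Th0 (15.8 to 32.0) and at least 328-fold above Treg. Its Th17 value rests on 1 count. Ighg2b had 760, 7, 17 and 9 counts, and naive was 77.5-fold above Th0 (37.4 to 193). Of the IgG genes, Ighg2c was thus the highest in naive per length, at 66.9 CPM per kb, and Ighg3 and Ighg1 the highest in Th0, at 5.71 and 5.17 CPM per kb. Ighe, the gene for IgE, had 2 counts in all and missed the minimum.

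Per length, Ighm held 81.0%, 91.5%, 92.7% and 95.5% of the summed heavy-chain constant level. Ighd held 4.93%, 0.831%, 1.89% and 1.74%, and Igha 5.01%, 0.114%, 0.990% and 1.60%. Ighg1 held 0.793%, 2.74%, 1.46% and 0.525%. By reads, Ighg1 was 1.08% of heavy-chain constant reads in naive (Clopper-Pearson interval 0.970 to 1.198) and 3.79% in Th0 (3.14 to 4.53), and these intervals do not overlap. Ighd was 4.92% (4.69 to 5.17) in naive and 0.842% (0.551 to 1.23) in Th0. Ighg3 held 1.76% per length in naive, 3.03% in Th0 and 2.27% in Th17, and 0 counts in Treg. The member isotypes other than Ighm thus each took a smaller part of the heavy-chain level in each culture than in naive, except Ighg1 and Ighg3 in Th0 and Th17.

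**Figure D2:**
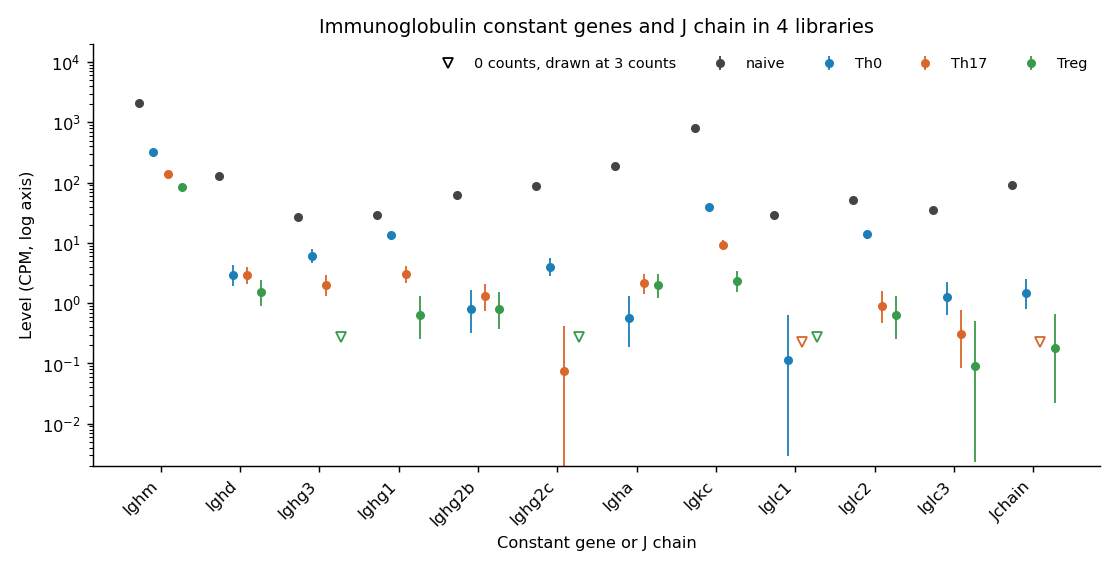
Level in CPM on a log axis (vertical) of the 12 constant and J chain members (horizontal) in the naive, Th0, Th17 and Treg libraries, 1 library each. Bars are 95% Poisson counting intervals, open triangles are genes with 0 counts drawn at 3 counts, and the naive point of each gene is its highest, with the smallest gap to Th0 at Ighg1 (28.7 against 13.4 CPM).

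Lambda constant genes differed from each other. Iglc2 had 643, 121, 12 and 7 counts, and naive was 3.79-fold above Th0 (3.12 to 4.64), 57.4-fold above Th17 (32.6 to 112) and 83.2-fold above Treg. Iglc3 had 428, 11, 4 and 1 counts, and naive was 27.8-fold above Th0 (15.4 to 56.0). Iglc1 had 362, 1, 0 and 0 counts. Iglc2 was 44.9% of lambda constant reads in naive (42.3 to 47.5) and 91.0% in Th0 (84.8 to 95.3). Its exons contain the 38 bases of Iglj2, and its coding sequence is nearly that of Iglc3 as printed above, so reads of these 3 genes may be split between them. Lambda made up 13.2%, 25.6%, 11.0% and 21.8% of the light-chain constant level per length. The Treg value rests on 8 lambda reads of 34, with a read share of 23.5% (10.7 to 41.2).

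Jchain, whose product links IgM and IgA into polymers, lies on chromosome 5 from 88519809 to 88527891. It had 1101, 13, 0 and 2 counts in the 4 libraries. Naive was 60.4-fold above Th0 (35.2 to 114). It was 393-fold above Th17 with 0 counts taken as 3, where the lower limit of the interval was 319. The Treg ratio, resting on 2 counts, was 499 with an interval of 138 to 4122.

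Summed, V segments differed from naive by more than the constant genes, a sum in which Ighm has most reads. The 163 V members summed to 1351, 46.2, 15.9 and 5.14 CPM in the 4 libraries, with naive 29.2-fold (26.5 to 32.3), 85.2-fold (74.3 to 98.2) and 263-fold (203 to 347) higher. Constant genes and Jchain together gave 3659, 409.7, 163 and 91.8 CPM, with folds of 8.93 (8.63 to 9.24), 22.4 (21.5 to 23.4) and 39.9 (37.5 to 42.5). The intervals of the V and constant folds do not overlap in any of the 3 pairs. Single genes of that sum did not all follow. Ighd, Ighg2b, Igha, Iglc1 and Jchain were further from naive in Th0 than the V sum was. In Th17 Igkc, Igha, Ighg2c, Iglc1, Iglc3 and Jchain were, and in Treg Igkc, Ighg2c, Iglc3 and Jchain. These folds are compared without their intervals, and those of Iglc1, and of Ighg2c, Iglc3 and Jchain in Th17 and Treg, rest on very few counts. Heavy V segments were 36.0-fold, 51.1-fold and 174-fold higher in naive than in Th0, Th17 and Treg, against 7.51-fold, 17.4-fold and 29.98-fold for heavy constant genes. Without Ighm, a sum chosen after seeing the data, the heavy constant folds were 18.7 (16.5 to 21.4), 45.8 (38.9 to 54.2) and 105 (80.9 to 140.2). In Th17 and Treg these intervals overlap those of heavy V (43.5 to 60.5 and 126 to 247), and in Th0 they do not (30.4 to 42.8). Kappa V segments were 24.3-fold, 158-fold and 408-fold higher, against the Igkc folds of 20.1, 85.7 and 339.8 given above. The kappa V and Igkc intervals overlap in Th0 (21.4 to 27.6 for V) and Treg (261 to 679 for V) and not in Th17 (122 to 209 for V).

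The same reads can be given as shares within each library. Heavy V reads were 17.9% of heavy V and constant reads in naive (17.6 to 18.3), 4.37% in Th0 (3.69 to 5.13), 6.92% in Th17 (5.89 to 8.08) and 3.63% in Treg (2.57 to 4.97). Each culture lay below naive with no overlap of intervals, and Th0 and Treg overlapped each other. Kappa V reads were 46.8% of kappa V and Igkc reads in naive (46.0 to 47.5), 42.1% in Th0 (38.1 to 46.2), 32.2% in Th17 (25.5 to 39.6) and 42.2% in Treg (27.7 to 57.8). The Th17 and Treg kappa shares rest on 180 and 45 reads, and the Treg interval includes the naive value. Lambda V reads were 37.6% in naive (35.6 to 39.6) and 7.64% in Th0 (3.87 to 13.3), with 1 lambda V read each in Th17 and Treg.

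T cell receptor genes, chosen for this comparison after the immunoglobulin shares were seen, were read in the same way. Trbv reads were 42.0%, 32.9%, 39.5% and 40.1% of Trbv and Trbc reads in naive, Th0, Th17 and Treg. Trav reads were 25.2%, 25.8%, 23.4% and 24.3% of Trav and Trac reads. No T cell receptor share differed from naive by as large a factor as the heavy V share did. The Trbv share was still below naive (41.0 to 42.9) in Th0 (31.9 to 34.0) and Th17 (38.3 to 40.6), with no overlap of intervals. The kappa V shares of Th0 and Treg lay closer to naive than the Trbv share of Th0 did. Among V reads, heavy V made up 45.3% of heavy and kappa V reads in naive (44.6 to 46.1), 35.9% in Th0 (31.1 to 40.8), 72.0% in Th17 (65.3 to 78.0) and 66.1% in Treg (52.2 to 78.2). The balance of heavy and kappa V reads was therefore below naive in Th0 and above it in Th17 and Treg.

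**Figure D3:**
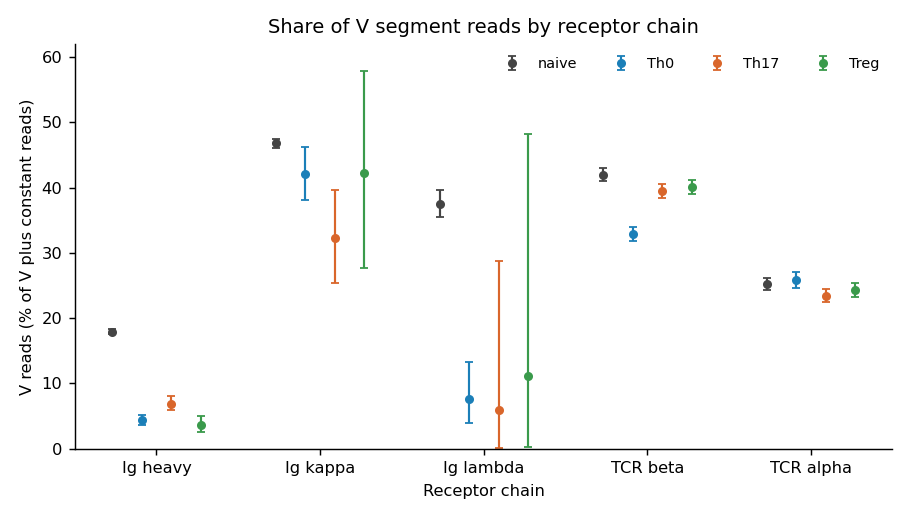
V reads as a percentage of V plus constant reads (vertical axis) for the immunoglobulin heavy, kappa and lambda chains and the T cell receptor beta and alpha chains (horizontal axis) in 4 libraries. Bars are 95% Clopper-Pearson intervals for counting error; heavy V reads stand at 17.9% in naive and at 3.63% to 6.92% in the cultures.

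Heavy V members numbered 82 of 185 rows. In naive their counts ran from 6 to 517 with a median of 63.5, and reads were spread widely, with an inverse Simpson index (the number of equally used segments that would give the same concentration) of 39.6. In Th0 50 of the 82 had a read, in Th17 53 and in Treg 21, and the highest counts were 11, 8 and 3. Ighv1-26, on chromosome 12 from 114788372 to 114788805, was the highest in naive, with 517, 7, 7 and 2 counts. It held 7.27% of heavy V reads in naive (6.68 to 7.90). Ighv3-6 followed per length at 74.2 CPM per kb with 318, 1, 4 and 0 counts. Ighv6-3 stood at 73.2 CPM per kb with 319, 3, 4 and 0 counts, and Ighv1-55 at 72.8 CPM per kb with 370, 6, 1 and 2 counts.

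In Th0, only Ighv9-3 and Ighv1-82 among heavy V segments reached 10 counts. Ighv9-3 had 235, 11, 7 and 2 counts, and Ighv1-82 had 106, 11, 6 and 2. The 10 heavy V segments with most reads in naive held 40.2% of heavy V reads there (39.1 to 41.4), and the same 10 held 27.7% in Th0 (20.5 to 35.8) and 24.8% in Th17 (18.1 to 32.6). In Treg they held 32.4% (18.0 to 49.8), an interval that includes the naive value. They were picked as the leaders of the naive library, so their share there is high by choice.

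Of the V families, Ighv1 was the largest, with 41 members. It held 52.2% of heavy V reads in naive (51.0 to 53.4), 63.1% in Th0 (54.6 to 71.1), 65.8% in Th17 (57.6 to 73.3) and 51.4% in Treg (34.4 to 68.1). Ighv3 had 420, 1, 8 and 0 reads, or 5.91%, 0.709%, 5.37% and 0% of heavy V reads. Ighv9 had 316, 14, 9 and 2 reads, or 4.45%, 9.93%, 6.04% and 5.41%. The other families had 0 to 11 reads in each culture.

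Kappa V members numbered 78 of 162 rows, with 8 to 654 counts in naive, a median of 75 and an inverse Simpson index of 37.0. In Th0 58 had a read, in Th17 24 and in Treg 11. Igkv10-96, on chromosome 6 from 68631963 to 68632442, was the highest in naive and in Th0, with 654, 18, 5 and 0 counts. It held 7.63% of kappa V reads in naive (7.08 to 8.21) and 7.14% in Th0 (4.29 to 11.1), so its share did not move beyond counting error. Igkv1-117 had 508, 17, 4 and 3 counts, Igkv1-110 had 406, 9, 2 and 2, and Igkv1-135 had 352, 11, 0 and 2. By family, Igkv4 held 17.1% of kappa V reads in naive and 9.13% in Th0, and Igkv1 15.8% and 15.9%.

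Position along the loci was read from the distance to the nearest J segment. Of naive heavy V reads, 34.2% (33.1 to 35.3) lay in the part of the locus nearest to J, 36.3% in the middle and 29.6% in the farthest part, each spanning 859.9 kb. In Th17 these shares were 22.1% (15.8 to 29.7), 40.3% and 37.6% (29.8 to 45.9). The nearest part held 29.8% in Th0 (22.4 to 38.1) and 29.7% in Treg (15.9 to 47.0), intervals that include the naive value. For kappa V in naive they were 35.6%, 29.2% and 35.2%, and in Th0 39.7%, 23.8% and 36.5%. Kappa V segments lie on both strands, and those on the plus strand held 42.8% of kappa V reads in naive (41.8 to 43.9), 47.6% in Th0 (41.3 to 54.0) and 60.3% in Th17 (46.6 to 73.0). In Treg the plus strand held 68.4% (43.4 to 87.4). Reads were thus found in all parts of both loci. In Th17 the nearest heavy-chain share (33 reads) lay below naive and the kappa plus-strand share (35 reads) above it, with no overlap of intervals. No other part of either locus lay apart from naive in this way, and no correction was made for the number of comparisons.

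**Figure D4:**
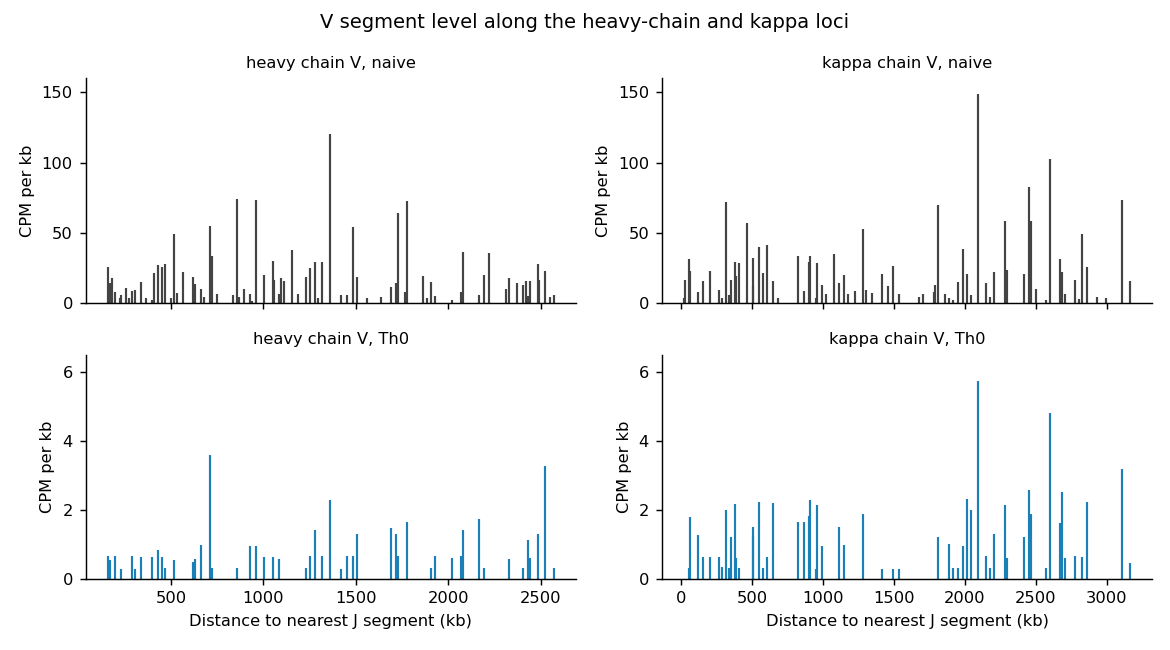
Level per length (CPM per kb, vertical axis, with a different scale in each row) of each heavy and kappa V member against its distance in kb from the nearest J segment, in the naive and Th0 libraries. Lines are single members of 1 library; the highest in naive is Ighv1-26 for the heavy chain (120 CPM per kb) and Igkv10-96 for kappa (149 CPM per kb).

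Lambda V members were 3 of 3 rows. Iglv1 had 601, 5, 1 and 1 counts, Iglv2 had 174, 0, 0 and 0, and Iglv3 had 87, 6, 0 and 0. Naive was 85.8-fold above Th0 for Iglv1 (36.5 to 265), at least 41.4-fold for Iglv2 and 10.3-fold for Iglv3 (4.57 to 29.0). Iglv1 held 69.7% of lambda V reads in naive (66.5 to 72.8), and in Th0 it held 5 of 11.

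J and D segments carried few reads. Of 14 J rows, 6 were members, with lengths of 38 to 100 bases. Ighj2 had 7, 3, 2 and 0 counts, Ighj4 had 8, 1, 2 and 0, and Igkj2 had 8, 0, 2 and 0. Igkj3 had 7, 2, 2 and 2, and Igkj5 had 9, 2, 2 and 2, so that these 5 had too few counts in either library to be tested. Iglj2 had 21, 5, 1 and 1, and it was called lower in Th17 and Treg and met neither call in Th0. The 20 D rows, of 10 to 29 bases, held 4 counts in all.

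Membership at the V loci was read by annotated class. Of rows annotated as V genes, 82 of 113 heavy and 77 of 101 kappa were members, and of rows annotated as V pseudogenes 0 of 70 heavy and 1 of 61 kappa were, the last being Igkv2-116. Just inside the count minimum lay Igkv11-125 with 10, 0, 0 and 0 counts, Ighv12-3 with 6, 0, 2 and 2, Ighv1-62-2 with 8, 2, 0 and 0, Igkv4-90 with 8, 1, 0 and 1, Igkv2-116 with 9, 1, 0 and 0 and Igkj2 as above. Just outside, with 9 counts, lay Ighv5-2 with 8, 1, 0 and 0, Ighv1-31 with 9, 0, 0 and 0, and Ighv1-67, with 4, 0, 5 and 0 and thus not highest in naive.

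Between the cultures, few members had enough counts. For Th17 over Th0, 10 of 16 tested members were lower, 0 higher and 6 neither, while 12.4% of all tested genes were lower and 20.1% higher. For Treg over Th0, 10 of 15 were lower, 0 higher and 5 neither, beside 12% and 20.2%. For Th17 over Treg, 3 of 8 members were higher and 0 lower, beside 1.91% and 1.24%. Th17 and Treg share the Th0 library in the first 2 comparisons. Of the 10 lower calls, 5 in Th17 and 8 in Treg were of members that reached 10 counts only in Th0, so these counts in part follow from the minimum. The same holds for Th17 over Treg, where 2 of the 3 higher calls were of members that reached 10 counts only in Th17. There, 0 members reached it only in Treg. With 4 CPM added in place of 1 the lower calls were 4 in Th17 and 6 in Treg, and with a minimum of 30 counts 6 and 6.

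Igkc was 4.26-fold lower in Th17 than in Th0 (3.46 to 5.28), 16.9-fold lower in Treg than in Th0 (11.3 to 26.2) and 3.96-fold higher in Th17 than in Treg (2.58 to 6.31). Ighg1 was 4.39-fold lower in Th17 than in Th0 (3.05 to 6.46) and 4.83-fold higher in Th17 than in Treg (2.14 to 12.8). Ighg3 was 3.12-fold lower in Th17 than in Th0 (1.92 to 5.19) and at least 7.32-fold higher in Th17 than in Treg. Iglc2 was 15.2-fold lower in Th17 than in Th0 (8.36 to 30.1), and between Th17 and Treg its interval included equality. Ighm was 2.31-fold lower in Th17 than in Th0 (2.17 to 2.45) and did not reach 2-fold between Th17 and Treg, at 1.69-fold (1.56 to 1.83).

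Igha stood against that order. Its level was 3.73-fold higher in Th17 than in Th0 (1.42 to 12.4) and 3.47-fold higher in Treg than in Th0 (1.28 to 11.7), from 5 counts in Th0, 28 in Th17 and 22 in Treg. With the added 1 CPM the log2 ratios were 0.99 and 0.92, just under the limit. With library totals they were 1.13 and 1.08 and were called higher. Ighd and Ighg2b also met neither call between Th17 and Th0, at log2 ratios of -0.03 and 0.35.

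Genes that act with immunoglobulins were read from lists chosen with earlier results of these data known, and 9 of the 12 B cell markers above stand in them too. Of 13 genes of the B cell receptor complex and its signalling, 12 were lower in Th0 than in naive. There were 10 lower in Th17 and 11 in Treg, and 0 were higher in any culture. Of all tested genes, 27.2%, 17.7% and 16.9% were lower than naive in Th0, Th17 and Treg, and 18.5%, 15.5% and 14.9% higher. The part of other cell types in the levels of these lists was not tested. Cd79a, whose product carries the signalling motif of the receptor, had 165, 16.9, 14.1 and 3.61 CPM in the 4 libraries. Of 11 transcription factors that act on immunoglobulin loci, 7, 6 and 7 were lower and 1 was higher in each, with the higher gene being Pou2f1 in Th0 and Irf4 in Th17 and Treg. Irf4, which T cells also induce on activation, had 92.8, 83.6, 995 and 685 CPM in the same order. Pou2af1, a B cell coactivator of octamer factors, had 90.1, 55.3, 14.9 and 5.05 CPM, and in Th0 it met neither call.

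The secretion and recombination lists were mixed. Of 9 tested genes of plasma cells and antibody secretion, 2 were lower and 0 higher in Th0. In Th17 and in Treg, 3 were lower and 2 higher in each. Of all tested genes, 27.2%, 17.7% and 16.9% were lower in Th0, Th17 and Treg, and 18.5%, 15.5% and 14.9% higher. Whether these short lists differ from those shares was not tested. Mzb1, a chaperone cofactor for IgM assembly, had 20.3, 26.0, 7.24 and 2.62 CPM. Xbp1, a factor of the secretory programme, had 130.01, 79.0, 281 and 326 CPM. Of 9 genes of recombination, switching and the surrogate light chain, Rag2 and Igll1 had 0 counts in all libraries and Rag1 at most 4. Of these genes 3, 4 and 3 could be tested in Th0, Th17 and Treg against naive, with 2, 1 and 1 lower and 0, 0 and 1 higher. Of 9 tested receptors for immunoglobulin, 8 were lower and 0 higher in each culture than in naive. Of 9 T cell receptor constant, CD3 and co-receptor genes found in the table, 1, 0 and 0 were higher and 1 in each was lower, namely Trdc.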

How the data were processed

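RNA-seq of 4 libraries was deposited as 1 table. Gene by gene it holds whole-number read counts and FPKM, both made by the authors, per the file headers. Bowtie2 and RSEM, with the builds GRCm38.p6 and mm10, are named in the submitters' processing notes without roles or versions. The sources used here give neither strand nor read length. Library totals were 11901949 counts (naive), 10272122 (Th0), 12414372 (Th17) and 10256627 (Treg), so 1 count was worth 0.0817, 0.114, 0.0762 and 0.0902 CPM. Counts were scaled with TMM (edgeR 4.0.16, R 4.3.3).

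The log2 ratio was taken on CPM plus 1. A call needed at least 2-fold and an exact conditional (Clopper-Pearson) 95% interval excluding equality. Levels have exact Poisson intervals and shares Clopper-Pearson ones; all cover counting error only, since reads carry no molecular identifiers. A count of 0 was set to 3 counts for bounds, so folds given as "at least" are not limits of the 95% interval, which can reach lower. The call rule was tried on simulated counts with counting error only, with the changed genes set above the level of most V members. Spread between libraries was not simulated. No p-value was computed with 1 library per group.

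Levels per length used GENCODE vM21 exon length, since the length behind the authors' FPKM exceeded the gene's genomic span in 58 of 181 members; Ighg3, whose span differed from GENCODE, kept the table's length. Of the members, 91 have a near-identical copy (at least 95% identity over 90% of length, blastn 2.17.0), among them 89 of the 163 V members, so reads may be split between copies. Iglc1, Iglc3 and Iglv1 are overlapped on the opposite strand by 2010309G21Rik. Another annotated gene overlaps Igkc and kappa J segments.

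Members, lists and rules were chosen with earlier results of these data known. Named are all constant, J and lambda members, the 4 highest heavy and kappa V segments per length in a library (at least 10 counts), the 4 highest and 4 lowest log2 ratios per comparison, and members next to the count minimum. List genes named beside a count, V families and T cell receptor segments were chosen after their values were seen. Alternatives covered scaling (library totals, upper quartile, size factors of DESeq2 1.42.0), pseudocount, count filters, FPKM, copies and length. Scripts ran under Python 3.11.15 with scipy 1.17.1, pandas 2.3.3, numpy 2.4.6, Biopython 1.88 and matplotlib 3.10.9.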

Additional observations from a re-analysis of the deposited data

How the results depend on the processing

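No paired analysis was possible because each group has 1 library. With 4 CPM added in place of 1, members lower than naive numbered 107 in Th0, 112 in Th17 and 112 in Treg. Those lower than Th0 numbered 4 in Th17 and 6 in Treg, and 1 was higher in Th17 than in Treg. This pseudocount shrinks low genes by construction. Without members that have a near-identical copy, 78, 80 and 81 were lower in Th0, Th17 and Treg than in naive, as fewer genes entered. A minimum of 30 counts left 132 members lower than naive in each culture, and 6 lower in Th17 and 6 in Treg than in Th0. Igha made the count of members higher than Th0 1 in place of 0, in Th17 with library totals, upper quartile factors or 0.25 CPM added, and in Treg with library totals or 0.25 CPM added. The log2 ratios of all tested genes shifted at the median by -0.26 (Th0 over naive), 0.30 (Th17 over Th0) and 0.33 (Treg over Th0) with library totals, and by -0.12, 0.14 and 0.15 with upper quartile factors. With library totals, Ighm in Th17 over Th0 was -0.89 and met neither call. The summed member level with library totals was 5159, 389, 190.1 and 105 CPM (naive, Th0, Th17, Treg). It was 5073 in naive with DESeq2 factors, 5090.4 in naive and 424 in Th0 with upper quartile factors, and 4887 in naive with at least 50 counts. The Ighm share of heavy constant genes in naive was 80.3% by reads. With the length behind the authors' FPKM, a choice added after seeing the data, it was 80.5%, the lambda share was 11.4% in naive and 17.7% in Th0, and the naive shares of Ighv1-26 and Igkv10-96 were 8.78% and 8.91%. Of 325 alternatives run on 65 single constant-gene ratios, 12 lost a call, 6 gained one and 307 did neither. No called ratio changed sign, and 2 alternatives changed the sign of an uncalled one, Ighd in Th17 over Th0 (0.20 with library totals and 0.08 with upper quartile factors, from -0.03). For a member at 0 counts, as 136 were in Treg, a level under 3 counts could not be told apart from 0.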
